A study of Gallus gallus with 60 samples.

Results

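The genes described here are 6 unconventional myosins of the hair bundle. They are MYO7A, MYO15A, MYO3A, MYO3B, MYO1H and MYO6, taken by their symbols from the gene name column of the table. All 6 were found, among 17684 rows, and all 6 passed the filter on low values that 13862 rows passed. That filter asked for 1 RPKM in 2 or more libraries. MYO3A met it through its controls, as its treated samples reached at most 0.841 RPKM. The 6 genes were followed in 60 libraries of whole chicken (Gallus gallus) utricle, a balance organ of the inner ear. Treated utricles were exposed to streptomycin, an aminoglycoside antibiotic toxic to hair cells, for 24 h and then left to recover. Control utricles carry the label control, with no other agent named, and both arms were sampled at 0, 24, 48, 54, 60, 66, 72, 96, 120, 144 and 168 h. There were 4 samples per arm at 24 h, 3 at 72, 96, 120 and 168 h, and 2 at the remaining times. That made 28 per arm in all, with repeat libraries as read from the sample titles. The labels give no strain, no age, no moment from which the hours run and no number of animals per sample. The p-values therefore weigh differences only against the variation between these samples, and how that relates to animals is not known.

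The hair bundle is a staircase of actin-filled stereocilia on top of each hair cell, and its deflection opens the mechanotransduction channels. Unconventional myosins are motors that walk on actin and carry or anchor other proteins there. In mammals MYO15A, MYO3A and MYO3B move toward the stereocilium tips, MYO7A works at the links between stereocilia, and MYO6, which walks toward the opposite end of actin filaments, is needed at the stereocilium base. MYO1H belongs to the class I myosins, single-headed motors that bind membranes. MYO7A, MYO15A, MYO3A and MYO6 are human deafness genes, and MYO6 also serves endocytosis in many cell types outside the ear.

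The values were taken as RPKM, reads scaled to transcript length and to the alignments of the library, at 1486991 to 40331879 alignments per library (median 21154441). There were 7 libraries under 5000000 alignments, namely control replicates 1 and 2 and treated replicate 1 at 24 h, treated replicate 1 at 96 h, control replicate 1 at 120 h, and replicate 1 of both arms at 168 h. Hair cell markers were present in every sample. The summed level of the listed markers ran from 488 to 2364 RPKM in controls (median 1595) and from 214 to 684 RPKM in treated samples (median 358). OTOF, the calcium sensor of the hair cell synapse, was lower in treated samples by a log2 difference of -2.39 ± 0.09, and OCM2, a calcium buffer, by -2.54 ± 0.09 (limma adjusted p = 3.43e-23 and 1.51e-24). Supporting cell markers summed to 330 to 1466 RPKM in controls and 686 to 2155 RPKM in treated samples, and 3 of 7 were called higher after treatment over all times, where 18.5% of all genes were called higher and 12.5% lower. Stromal markers summed to 44.1 to 924 RPKM and 54.5 to 1244 RPKM, with 8 of 10 higher, and leukocyte markers to 64.3 to 143 RPKM and 74.1 to 159 RPKM, with 4 of 8 higher and 2 lower. Of 3 muscle markers and 3 melanocyte markers tested, limma called 0 in either direction (1 and 0 at an unadjusted p under 0.05), and of 5 neuronal markers 2 were lower and 1 higher. The part of these other cell types in the myosin differences was not tested. In a bulk sample, fewer hair cells and less RNA per hair cell cannot be told apart.

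Levels per transcript length spanned a wide range among the myosins. In the 28 control samples the lowest, median and highest values were 38.1, 63.7 and 97.8 RPKM for MYO6, then 12.7, 27.8 and 41.0 RPKM for MYO7A. MYO3B followed with 5.29, 10.6 and 17.1 RPKM and MYO15A with 3.28, 7.72 and 15.3 RPKM. MYO1H had 2.16, 3.51 and 5.42 RPKM, and MYO3A was lowest with 0.185, 1.28 and 2.45 RPKM. Each neighbouring pair in this order overlapped in range, most of all MYO3B with MYO15A, while MYO6 and MYO3B, or MYO7A and MYO1H, did not overlap. In the 28 treated samples the order by median was the same, with 32.4, 50.2 and 72.2 RPKM for MYO6 and 3.01, 8.82 and 11.9 RPKM for MYO7A. MYO3B had 1.81, 3.33 and 5.54 RPKM, MYO15A 0.628, 1.84 and 7.33 RPKM, and MYO3A 0.0916, 0.318 and 0.841 RPKM. MYO1H was listed at 0 in the lowest treated sample, with a median of 1.50 and a highest value of 3.91 RPKM. The median of MYO6 thus shifted little between arms beside that of MYO7A, whose highest treated value of 11.9 RPKM lay below its lowest control value of 12.7 RPKM, taken over all times. The share of all genes with such a separation was not counted. It cannot exceed 0.649%, the share whose treated samples lay below every control of the same time at all 11 times.

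**Figure D1:**
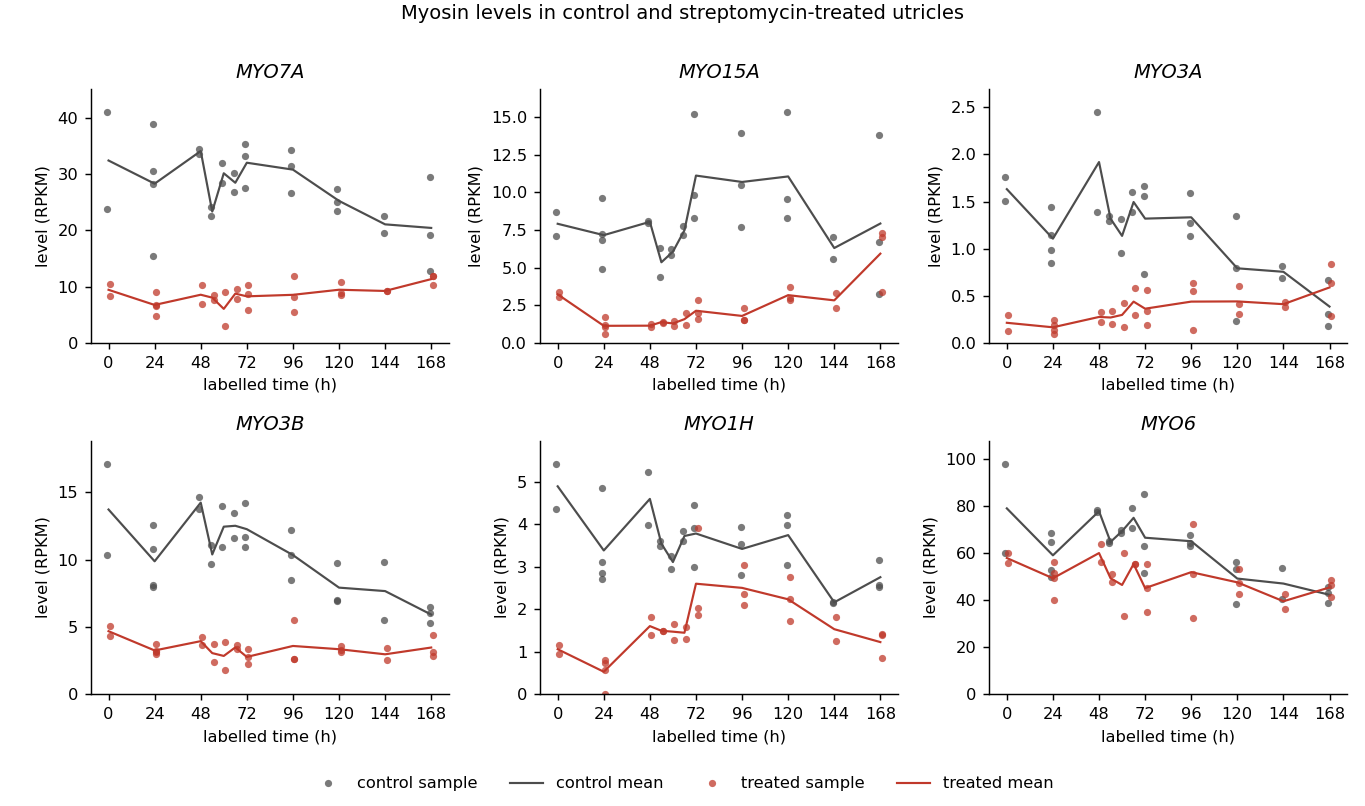
Level in RPKM (vertical axis, from 0, scaled per gene) of the 6 myosins against labelled time in h, with 1 point per sample and lines through the group means for control (grey) and streptomycin-treated utricles (red). The treated points of MYO7A lie at 3.01 to 11.9 RPKM, all below the controls at 12.7 to 41.0 RPKM, whereas those of MYO6 overlap the controls at most times. The share of all genes separated in the way of MYO7A was not counted, but cannot exceed the 0.649% separated at each of the 11 times.

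Averaged over the 11 times, with each time weighted equally, all 6 myosins were lower in treated utricles, where 12.5% of all genes tested were. This count and those below include MYO3A, which had passed the filter through its controls. The median difference of the 6 myosins was -1.24 on the log2(RPKM + 0.5) scale, against 0.06 over all genes. MYO15A differed by -1.68 ± 0.11 (SE; 3.21-fold lower), MYO7A by -1.65 ± 0.10 (3.14-fold) and MYO3B by -1.49 ± 0.08 (2.80-fold), with limma adjusted p-values of 6.1e-16, 7.31e-17 and 5.62e-18. MYO1H differed by -0.99 ± 0.09 and MYO3A by -0.95 ± 0.10 (adjusted p = 6.5e-12 and 1.27e-10). These differences and folds are on that scale, not of RPKM itself, and understate the change of the low genes. With a pseudocount of 0.1 in place of 0.5 the difference of MYO3A was -1.48 and that of MYO1H -1.21. That of MYO15A was then -1.88, against -1.70 for MYO7A and -1.59 for MYO3B. MYO6 differed by -0.33 ± 0.07, so that treated samples held 79.7% of the control level (limma adjusted p = 0.000583). This call was lost without all samples numbered 2, at -0.29. That omission takes a sample per arm from each of the 11 times and leaves a single one per arm at times of 2. Calls lost under it were not told apart from the effect of a smaller fit.

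By period, 5 of 6 myosins were called lower at 0 and 24 h, 6 at 48 to 72 h and 4 at 96 to 168 h, where 5.98%, 10.2% and 7.11% of all genes were. The median difference of the 6 genes was -1.56, -1.51 and -0.85 in these periods. At single times from 0 to 120 h, 3 to 5 of the 6 were called lower, while the share of all genes called lower was 1.98% at 0 h, 5.4% at 24 h, 2.41% at 48 h, 1.8% at 54 h, 2.94% at 60 h, 1.83% at 66 h, 2.89% at 72 h, 3.3% at 96 h and 1.7% at 120 h. At 144 and 168 h limma called 0 of 6 (3 at each time at an unadjusted p under 0.05), with 0.498% and 0.808% of all genes called lower. With the sample pairs as a block, calls were gained for MYO15A at 0 h, MYO3A at 60 and 66 h (adjusted p = 0.0302 and 0.0334) and MYO3B at 144 h, and lost for MYO1H at 48 and 66 h. The block raised the number of genes called in either direction at each of the 11 times, for example from 355 to 834 at 0 h, from 582 to 1250 at 60 h and from 196 to 791 at 168 h. Treated samples lay below every control of the same time at all 11 times for MYO7A and MYO3B, as they did for 0.649% of all genes. They did so at 10 times for MYO15A (10 or more, 1.78% of genes) and at 9 times for MYO3A and for MYO1H (9 or more, 2.84%). At a single time of 2 samples per arm such separation was common, with 19% of all genes at 48 h and 23.4% at 66 h. Separations at single times are given below for each gene as descriptions only. Shares of all genes are given only for 48, 54, 60 and 66 h, so separations at other single times cannot be weighed. Over the 6 genes 36 calls were made at single times, and 20 of them stood whichever single sample was left out, among them all 5 at 24 h, where groups are largest.

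**Figure D2:**
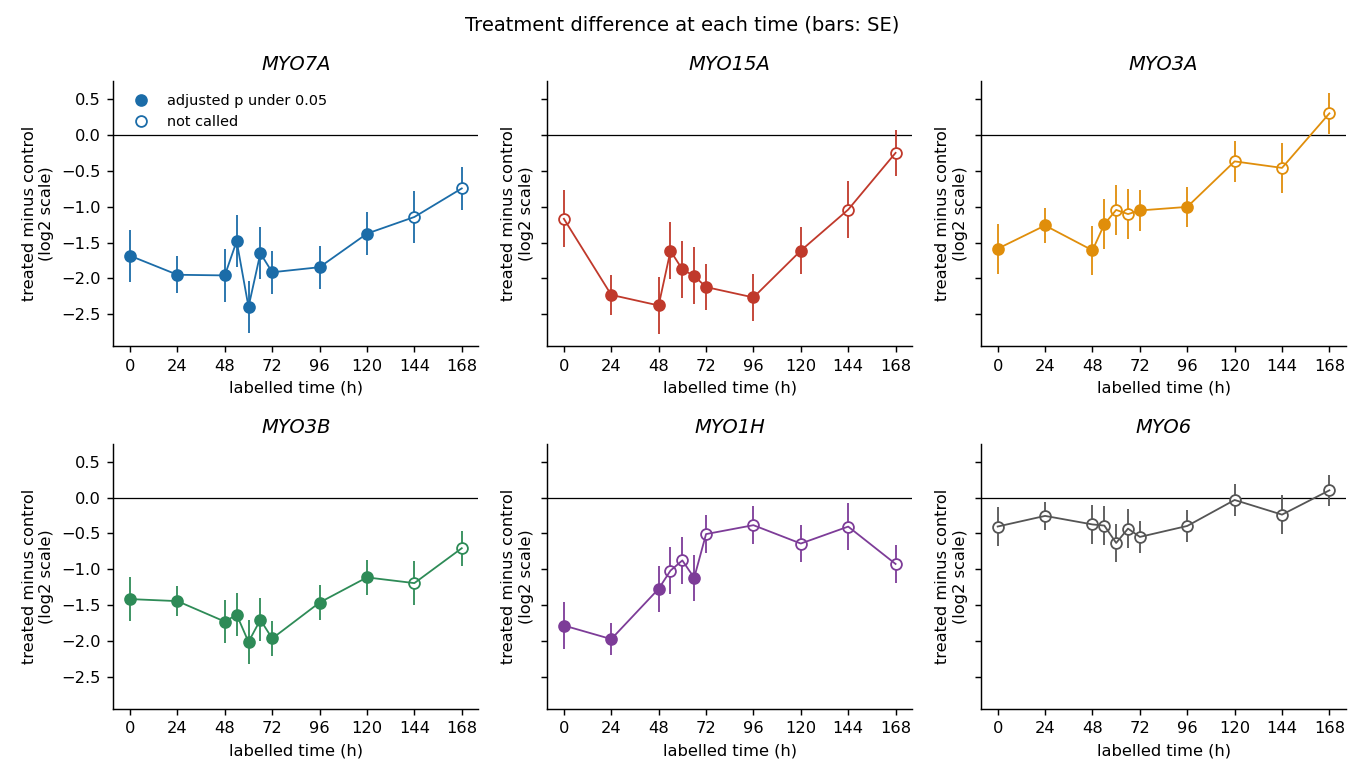
Treated minus control on the log2(RPKM + 0.5) scale (vertical axis, bars are SE) against labelled time in h for each of the 6 myosins, with filled points for adjusted p under 0.05. MYO7A runs from -2.40 at 60 h to -0.75 at 168 h, while MYO6 stays between -0.63 and 0.10 with every point open.

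MYO7A, the motor whose loss causes deafness and balance defects in mice, was lower at all times sampled up to 120 h. At 0 h the controls held 23.8 and 41.0 RPKM and the treated samples 8.41 and 10.5 RPKM. At 24 h the controls held 38.8, 15.5, 30.6 and 28.2 RPKM against 6.74, 4.71, 6.58 and 8.96 RPKM. Every treated value at both times lay below every control. At 24 h the difference was -1.95 ± 0.26 (limma adjusted p = 4.56e-07), and over both times -1.82 ± 0.22. From 48 to 72 h the 11 controls held 22.5 to 35.4 RPKM and the 11 treated samples 3.01 to 10.3 RPKM, the lowest being replicate 2 at 60 h, and the difference was -1.88 ± 0.16 (adjusted p = 2.05e-12). At 96 h the controls held 34.2, 31.4 and 26.6 RPKM and the treated samples 5.53, 11.9 and 8.25 RPKM. At 120 h they held 23.4, 27.3 and 25.0 RPKM against 8.51, 8.93 and 10.9 RPKM, and at 144 h 19.6 and 22.5 RPKM against 9.31 and 9.16 RPKM. The samples of the arms did not overlap at these times. The difference was -1.84 ± 0.30 at 96 h and -1.38 ± 0.30 at 120 h, both called. By 144 h it was -1.14 ± 0.36 and did not pass (limma adjusted p = 0.302). At 168 h the controls held 19.1, 29.4 and 12.7 RPKM and the treated samples 10.3, 11.8 and 11.9 RPKM, and the highest treated value came close to the lowest control. The treated mean there was 55.5% of the control mean, against 23.9% at 24 h, and the difference of -0.75 ± 0.30 did not pass (adjusted p = 0.222). Over 96 to 168 h it was -1.28 ± 0.16 (adjusted p = 8.85e-08). Of the 9 calls at single times, that at 0 h was lost without control replicate 2 or treated replicate 1 (highest adjusted p = 0.217), that at 66 h without control replicate 1 or treated replicate 2 (0.102), and that at 54 h without any 1 of its 4 samples (0.179).

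MYO15A, which in mice brings whirlin and EPS8 to the tips and is needed for stereocilia to lengthen, had its lowest treated means at 24 and 48 h. At 0 h the controls held 7.12 and 8.71 RPKM and the treated samples 3.09 and 3.37 RPKM, without overlap, and the difference of -1.17 ± 0.40 did not pass in limma (adjusted p = 0.125; 0.0292 with the sample pairs as a block). At 24 h the controls held 7.26, 6.84, 9.65 and 4.89 RPKM and the treated samples 0.628, 1.16, 1.71 and 1.06 RPKM. Treated values at 24 h were thus below those at 0 h as well as below every control, and the difference was -2.23 ± 0.28 (adjusted p = 1.82e-07). From 48 to 72 h the controls held 4.39 to 15.2 RPKM and the treated samples 1.06 to 2.83 RPKM, with no overlap at any of these times, and the difference was -1.99 ± 0.17 (adjusted p = 4.73e-12). At 96 h the treated samples still held only 1.55, 2.31 and 1.53 RPKM against 13.9, 10.5 and 7.67 RPKM, a difference of -2.26 ± 0.33 (adjusted p = 4.7e-06). Higher treated values followed. They were 3.69, 2.97 and 2.87 RPKM at 120 h against 8.30, 15.3 and 9.55 RPKM, and 3.35 and 2.31 RPKM at 144 h against 7.02 and 5.59 RPKM. At 168 h the treated samples held 7.05, 7.33 and 3.41 RPKM and the controls 6.69, 13.8 and 3.28 RPKM, and the arms overlapped. The treated mean of 5.93 ± 2.19 RPKM (SD, n = 3) was 74.8% of the control mean. The difference of -0.25 ± 0.33 did not pass (adjusted p = 0.824) and had no stable sign. It was 0.24 without control replicate 2, 0.07 without treated replicate 3 and -0.73 without control replicate 3. That last control held the lowest control value of MYO15A at any time, as it did for MYO7A, MYO3A and MYO3B. Of the 8 calls at single times, those at 60 and 66 h were lost without treated replicate 2 (adjusted p = 0.0651 and 0.0813) and that at 54 h without any 1 of its 4 samples (highest 0.19).

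MYO3B, 1 of a pair of class III myosins that carry espin proteins along stereocilia, was called lower at all times sampled up to 120 h. At 0 h the controls held 10.3 and 17.1 RPKM and the treated samples 4.34 and 5.06 RPKM. At 24 h they held 10.8, 8.12, 8.01 and 12.6 RPKM against 3.21, 3.12, 3.0 and 3.75 RPKM, a difference of -1.44 ± 0.21 (limma adjusted p = 4.33e-06). No treated sample reached a control at either time. From 48 to 72 h the controls held 9.69 to 14.7 RPKM and the treated samples 1.81 to 4.24 RPKM, and the difference of -1.81 ± 0.13 (adjusted p = 3.55e-14) was the largest of the 3 periods in value, though the change from the first was not called (adjusted p = 0.392). At 96 h the treated samples held 2.66, 5.54 and 2.61 RPKM against 10.4, 8.52 and 12.2 RPKM, and at 120 h 3.61, 3.31 and 3.16 RPKM against 7.05, 6.96 and 9.80 RPKM. At 144 h they held 2.54 and 3.43 RPKM against 5.54 and 9.82 RPKM, a difference of -1.19 ± 0.30 that missed the threshold (adjusted p = 0.0583; 0.0343 with the block). It also passed with trimmed-mean (0.0426) or quantile scaling (0.0149), a stricter filter (0.0489) and repeat libraries kept separate (limma adjusted p = 0.0346). At 168 h the treated samples held 3.16, 2.89 and 4.41 RPKM and the controls 6.47, 6.04 and 5.29 RPKM. The samples of the arms did not overlap there, with the treated mean at 58.8% of the control mean and lower controls than at any earlier time on average. The difference of -0.71 ± 0.25 did not pass (limma adjusted p = 0.152). Of the 9 calls at single times, that at 0 h was lost without control replicate 2 or treated replicate 1 (highest adjusted p = 0.221), that at 54 h without treated replicate 1 (0.0622) and that at 120 h without control replicate 3 (0.051).

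MYO3A, the other class III myosin, had the lowest median level of the 6 in both arms. It is a kinase as well as a motor. Its values came from about 3 to 325 reads in control libraries (median 92.5) and 2 to 115 in treated ones (median 33.5), with under 10 reads in 3 control and 6 treated libraries. At 0 h the controls held 1.50 and 1.76 RPKM and the treated samples 0.300 and 0.128 RPKM. At 24 h they held 0.845, 1.15, 1.44 and 0.988 RPKM against 0.247, 0.0916, 0.135 and 0.191 RPKM. Treated means were 13.1% and 15% of the control means, and the arms did not overlap. The difference over both times was -1.42 ± 0.21 (limma adjusted p = 3.92e-06), or -2.35 with a pseudocount of 0.1. From 48 to 72 h the controls held 0.729 to 2.45 RPKM and the treated samples 0.172 to 0.583 RPKM, a difference of -1.21 ± 0.15 (adjusted p = 2.85e-08). At 120 h the controls spread from 0.229 to 1.35 RPKM and the treated samples from 0.306 to 0.599 RPKM. At 168 h the treated samples held 0.286, 0.841 and 0.639 RPKM and the controls 0.304, 0.669 and 0.185 RPKM. The arms overlapped at both times, and at 168 h the treated mean of 0.589 ± 0.281 RPKM was above the control mean of 0.386 ± 0.253 RPKM (SD, n = 3 each), without passing (0.30 ± 0.28, adjusted p = 0.724). Over 96 to 168 h the difference was -0.38 ± 0.15 (adjusted p = 0.0739, and 0.032 with the block); it passed without control replicate 1 at 120 h (adjusted p = 0.0174), a library of under 5000000 alignments, and without treated replicate 2 at 168 h (adjusted p = 0.0498). Of the 6 calls at single times only that at 24 h stood under every omission of 1 sample. The others were lost without control or treated replicate 2 at 0 h, control replicate 1 at 48 h, any sample at 54 h, control replicates 1 or 3 or treated replicates 2 or 3 at 72 h, and control replicates 2 or 3 or treated replicate 1 at 96 h (highest adjusted p = 0.104, 0.131, 0.369, 0.138 and 0.209).

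MYO1H had its lowest treated values at 24 h and higher ones from 48 h. At 0 h the controls held 4.36 and 5.42 RPKM and the treated samples 1.17 and 0.953 RPKM. At 24 h the controls held 4.85, 3.10, 2.71 and 2.87 RPKM, and the treated samples 0.579, 0.814 and 0.743 RPKM with replicate 1, of 3447741 alignments, listed at 0. All treated values lay below all controls at both times. The difference at 24 h was -1.97 ± 0.23 (limma adjusted p = 3.08e-08), and -1.65 without that replicate. At 48 h the treated samples held 1.82 and 1.39 RPKM against 5.22 and 3.97 RPKM, and from 54 to 66 h 1.29 to 1.67 RPKM against 2.96 to 3.84 RPKM. At 72 h they held 3.91, 2.02 and 1.88 RPKM against 3.92, 2.98 and 4.44 RPKM, and at 96 h 2.36, 3.04 and 2.11 RPKM against 3.54, 2.80 and 3.92 RPKM. The arms overlapped at these last times, with treated means at 68.8% and 73.2% of control. At 120 h the treated samples held 1.72, 2.75 and 2.24 RPKM against 4.21, 3.04 and 3.98 RPKM. At 168 h they held 0.852, 1.43 and 1.41 RPKM against 3.17, 2.57 and 2.53 RPKM, apart again at 44.7% of the control mean, with a difference of -0.92 ± 0.26 (adjusted p = 0.064). That difference passed with trimmed-mean (0.0387) or quantile scaling (0.0119), a pseudocount of 1 (0.0482) and repeat libraries kept separate (limma adjusted p = 0.0441). Over 48 to 72 h the difference was -0.96 ± 0.14 (limma adjusted p = 9.45e-07) and over 96 to 168 h -0.59 ± 0.14 (limma adjusted p = 0.0025). The latter call was lost without all samples numbered 2, though the difference was larger there, at -0.70. The single-time calls at 48 and 66 h were lost with the block (adjusted p = 0.0555 and 0.105). The call at 48 h was also lost without any 1 of its 4 samples (highest adjusted p = 0.231), and that at 66 h in 35 of 56 omissions of 1 sample (0.391).

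MYO6 was the most abundant of the 6 and the least changed in ratio. At 24 h the controls held 64.8, 49.9, 52.8 and 68.5 RPKM and the treated samples 40.1, 49.6, 51.3 and 56.1 RPKM, which overlapped. At 48 h they held 78.1 and 77.3 RPKM against 63.9 and 56.0 RPKM, and at 60 h 69.9 and 68.6 RPKM against 33.1 and 59.8 RPKM. Treated samples lay below the controls at 48, 54, 60 and 66 h, as they did for 19%, 23.2%, 23.2% and 23.4% of all genes at these times of 2 samples per arm. The difference over 48 to 72 h was -0.48 ± 0.12 (limma adjusted p = 0.00224), a call lost without all samples numbered 2, at -0.40. Over 0 and 24 h it was -0.33 ± 0.16 (adjusted p = 0.205) and over 96 to 168 h -0.14 ± 0.12 (adjusted p = 0.469, interval -0.38 to 0.09). At 168 h the controls held 38.6, 45.4 and 42.8 RPKM and the treated samples 41.1, 46.5 and 48.5 RPKM, again overlapping, with a treated mean at 107% of control. At single times limma called MYO6 at 0 of 11 times, and 2 had an unadjusted p under 0.05.

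The myosins were compared with each other in the size of the treatment difference averaged over the 11 times, for all 15 pairs, by a two-sided permutation test with 100000 draws of the arm labels within each time. Benjamini-Hochberg adjusted p-values over the 15 pairs passed in 11. MYO6 differed from each of the other myosins. MYO7A was lower than MYO6 by a further -1.32 ± 0.08 on average, and MYO3B by -1.16 ± 0.06 (permutation test, adjusted p = 1.87e-05 each, from a raw p of 1e-05, the smallest the draws can give). Each treated sample was also set against the mean of the controls of its time. The sign was that of the average in 28 of 28 treated samples for both genes. MYO1H was lower than MYO6 by a further -0.66 ± 0.09, with that sign in 23 of 28, and MYO3A by -0.62 ± 0.08, with that sign in 26 of 28. Between MYO7A and MYO15A the difference was 0.03 (95% interval -0.21 to 0.28; permutation adjusted p = 0.754), and between MYO15A and MYO3B -0.20 (-0.48 to 0.09; 0.144). MYO7A and MYO3B differed by -0.16 (-0.35 to 0.02; permutation adjusted p = 0.0577), which passed when labels were swapped within pairs (0.0483), and without all samples numbered 3 (-0.27, 0.0146) or 4 (-0.18, 0.047). The class III pair differed, by 0.54 ± 0.11 for MYO3A minus MYO3B (permutation adjusted p = 5e-05), but MYO3A sits near the pseudocount: at 0.1 that difference was 0.11 (0.484) and MYO7A minus MYO3A moved from -0.70 to -0.22 (0.161). MYO3A and MYO1H differed by 0.04 (-0.19 to 0.27; permutation adjusted p = 0.746), and by -0.27 at a pseudocount of 0.1.

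The treatment difference was then compared between periods within each gene. For MYO1H it shrank by 1.29 ± 0.24 from 0 and 24 h to 96 to 168 h (limma adjusted p = 0.000873) and by 0.92 ± 0.24 already by 48 to 72 h (adjusted p = 0.0181). For MYO3A it shrank by 1.04 ± 0.26 from the first to the last period (adjusted p = 0.00984) and by 0.83 ± 0.21 from the middle to the last (adjusted p = 0.0383). These made 2 of 6 genes from first to last, 1 of 6 from first to middle and 1 of 6 from middle to last, where 3.9%, 1.84% and 0.57% of all genes rose in the same sense. From middle to last MYO15A and MYO3B had 0.70 ± 0.24 and 0.69 ± 0.18 without passing (adjusted p = 0.204 and 0.0519), and passed with the block (0.0485 and 0.0232). MYO3B also passed in 14 of 60 omissions of samples. MYO15A also passed there without control replicate 2 at 168 h (0.82, adjusted p = 0.0428). For MYO7A the same difference was 0.60 ± 0.22 (limma adjusted p = 0.249) and for MYO6 0.33 ± 0.16 (0.499). Within treated samples the middle-to-last change was 0.87 for MYO15A, 0.30 for MYO7A and 0.22 for MYO3A. It was 0.08 for MYO1H, 0.05 for MYO3B and -0.15 for MYO6, and limma called only MYO15A, where 7% of genes rose. Within controls it was 0.17, -0.30, -0.61, -0.29, -0.64 and -0.49 in the same order. The first-to-last call of MYO3A was lost without all samples numbered 1, 2 or 3, at 1.26, 0.90 and 0.94. That of MYO1H was lost without those numbered 2, at 1.10. The middle-to-last call of MYO3A was lost in 31 of 60 such omissions and at a pseudocount of 0.1 (adjusted p = 0.0838). The first-to-middle call of MYO1H was lost without all samples numbered 1 or 2, at 0.72 and 0.84. It was also lost without control replicate 2 (0.85) or treated replicate 1 at 0 h (0.97), and without the 7 shallow libraries (0.66, limma adjusted p = 0.0565). Hair cell markers moved in the same sense from first to last, with 7 of 11 passing and a median of 1.26. Stromal markers did so in 1 of 10 (median 0.86), leukocyte markers in 2 of 8 (0.48) and supporting cell markers in 1 of 7 (0.57), and the part of these markers was not tested.

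**Figure D3:**
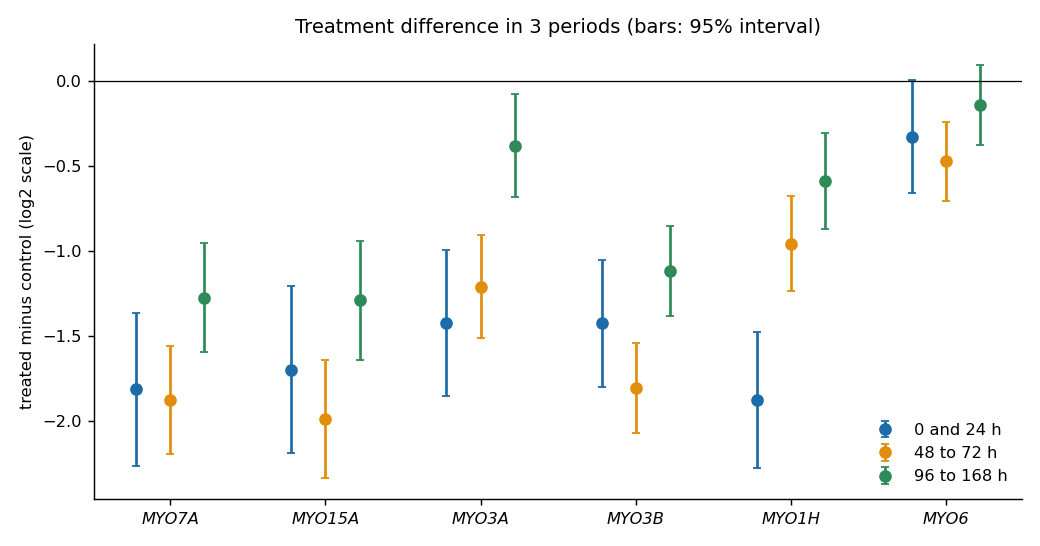
Treated minus control on the log2(RPKM + 0.5) scale (vertical axis) for the 6 myosins in 3 periods, with points for the mean over the times of a period and bars for the 95% interval. MYO1H moves from -1.88 through -0.96 to -0.59, MYO3A from -1.42 through -1.21 to -0.38, and MYO7A from -1.82 through -1.88 to -1.28.

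An F test over the 11 times asked whether the treatment difference varied in any way, and limma called 0 of 6 myosins (4 at an unadjusted p under 0.05), where 1.48% of all genes were called. The adjusted p was 0.0594 for MYO1H, 0.0908 for MYO15A, 0.099 for MYO3A, 0.547 for MYO3B, 0.65 for MYO7A and 1 for MYO6. With the block MYO15A (0.0186) and MYO3A (0.0363) passed, and with repeat libraries kept separate MYO1H (0.0104), MYO15A (0.0246) and MYO3A (0.0384) did. MYO1H also passed with trimmed-mean scaling (0.0378) and in limma without trend (0.0386), and MYO15A with quantile scaling (0.0496). Leaving out samples, MYO1H passed without treated replicate 3 (0.0492) or 4 (0.0454) at 24 h or treated replicate 3 at 60 h (0.0496). MYO15A passed without control replicate 2 (0.00666) or treated replicate 3 (0.038) at 168 h, and MYO3A without control replicate 2 at 120 h (0.0391) or at 168 h (0.048).

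The change over time was then tested within each arm. Within treated samples the F test over times called MYO15A (limma adjusted p = 0.000235) and MYO1H (0.00012), against 18.4% of all genes. MYO15A rose in treated samples by 0.87 ± 0.17 from 48 to 72 h to 96 to 168 h (limma adjusted p = 0.000403), where 7% of genes rose. That call was lost without all samples numbered 1 or 2, at 0.85 and 0.78. MYO1H rose in treated samples by 0.90 ± 0.17 from 0 and 24 h to 96 to 168 h (limma adjusted p = 7.95e-05), a call lost without all samples numbered 2, at 0.84. MYO15A and MYO3A also passed in that contrast, by 0.56 ± 0.21 and 0.47 ± 0.18 (adjusted p = 0.0368 and 0.0427), so that 3 of 6 rose where 13.3% of genes did, but these were lost in 11 and 16 of 60 omissions of samples. In the same contrast within treated samples, 9 of 10 stromal markers were called higher (median 1.70), as were 7 of 11 hair cell markers (0.88), 4 of 8 leukocyte markers (0.40) and 2 of 7 supporting cell markers (0.27). Their part in the treated rises was not tested. Within controls the F test called MYO3A (adjusted p = 0.0285) and MYO3B (0.0233), against 6.46% of all genes. From 48 to 72 h to 96 to 168 h controls fell by 0.64 ± 0.13 for MYO3B (adjusted p = 0.00243), by 0.61 ± 0.15 for MYO3A (0.00945) and by 0.49 ± 0.12 for MYO6 (0.00772), that is 3 of 6, where 6.45% of genes fell. Each of these calls was lost without all samples numbered 1, at -0.53, -0.36 and -0.33. Each was also lost without those numbered 2, where the falls were larger in value at -0.72, -0.86 and -0.61. That of MYO6 was lost without control replicate 1 at 144 h as well, at -0.44. From 0 and 24 h to the last period MYO3A, MYO3B and MYO6 passed as well, at -0.57 ± 0.18, -0.53 ± 0.16 and -0.42 ± 0.14 (adjusted p = 0.0248, 0.0155 and 0.032), where 12.2% of genes fell. These were lost in 6, 4 and 8 of 60 omissions, each of them without control replicate 2 at 0 h (adjusted p = 0.122, 0.225 and 0.362). In controls the summed hair cell markers were 1968 ± 163 RPKM at 0 h (SD, n = 2) and 1097 ± 564 RPKM at 168 h (SD, n = 3). The course between was uneven, with means of 1392 RPKM at 54 h and 1703 RPKM at 72 h. The summed stromal markers were 92.9 ± 69.0 RPKM at 0 h and 310 ± 264 RPKM at 168 h. Of 10 stromal markers 5 were called higher in the last than in the first period, where 7.24% of all genes were. Their part in the lower late control values was not tested.

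**Figure D4:**
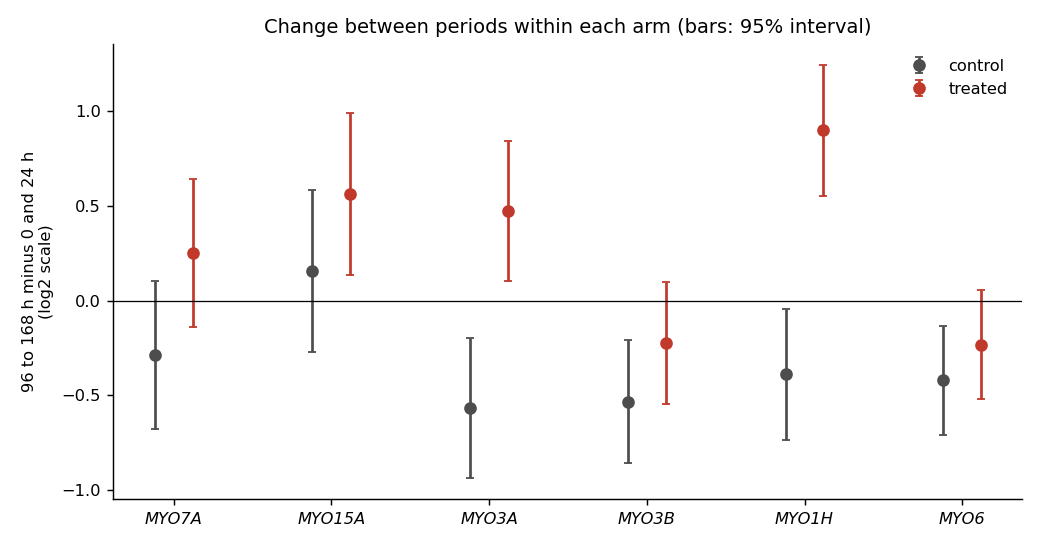
Change from 0 and 24 h to 96 to 168 h within each arm on the log2(RPKM + 0.5) scale (vertical axis), for control (grey) and treated samples (red), with points for the difference of period means and bars for the 95% interval. The treated point of MYO1H stands at 0.90 and its control point at -0.39, while both points of MYO3B (-0.53 in controls, -0.22 in treated samples) and of MYO6 are below 0.

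The remaining unconventional myosins of the table were examined in the same way. Of 17 reported here, 13 were tested, and MYO1A, MYO1G, MYO5B and MYO7B fell below the filter. Over all times 2 were lower and 2 higher, with a median of -0.04, and both shares are near those of all genes (12.5% lower, 18.5% higher). MYO1C was among those not called, at -0.04 ± 0.07 (limma adjusted p = 0.707). The 6 are a chosen set, and which other myosins also serve the bundle was not tested. MYO18B, an unconventional myosin best known from striated muscle, was lower by -1.27 ± 0.13 (limma adjusted p = 8.62e-11), with a median of 3.28 RPKM in controls and 1.01 RPKM in treated samples. MYO9B, a motor that also inactivates RhoA, was lower by -0.47 ± 0.09 (adjusted p = 8.34e-05). MYO16 and MYO19, a mitochondrial motor, were higher by 0.39 ± 0.09 and 0.34 ± 0.08 (adjusted p = 0.00119 and 0.00105). Of 6 class II myosin chains, the conventional myosins of contraction, limma called 0 (1 at an unadjusted p under 0.05), with a median of 0.06.

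**Figure D5:**
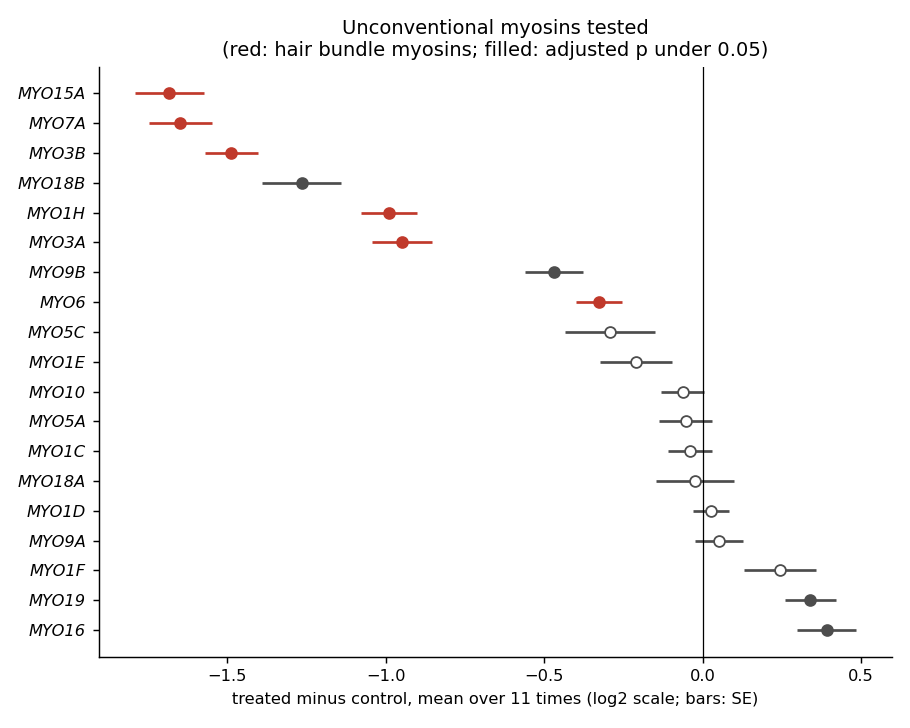
Treated minus control averaged over the 11 times on the log2(RPKM + 0.5) scale (horizontal axis, bars are SE). Red marks the 6 myosins described here and grey 13 other unconventional myosins, with filled points for adjusted p under 0.05. The red points lie between -1.68 and -0.33, and among the grey points MYO18B at -1.27 is the farthest below 0.

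Genes that work with these motors were grouped by the motor or the place they serve, and their counts stand beside 12.5% of all genes called lower, 18.5% called higher and a median of 0.06. Among 12 partners of MYO7A and link proteins reported here, 9 were lower over all times, with a median of -0.97. USH1G, a scaffold of the upper tip link, was lower by -1.67 ± 0.12 and GPR98, the ankle link receptor, by -1.57 ± 0.14 (limma adjusted p = 4.53e-15 and 5.81e-12). Among 11 genes of the tip complex or class III and MYO15A cargo, 3 were lower and 1 higher, with a median of 0.01. ESPN and ESPNL, the espin cargo of class III myosins, were lower by -2.09 ± 0.17 and -1.79 ± 0.23, and GPSM2, which also orients the bundle, was higher by 0.32 ± 0.08 (adjusted p = 2.53e-13, 4.04e-08 and 0.00107). Whirlin, listed under its older symbol DFNB31, had -0.24 ± 0.13 (adjusted p = 0.14) and EPS8 0.10 ± 0.06 (0.222), and neither passed. Among 13 partners of MYO6 and proteins of the stereocilium base, 5 were lower and 3 higher, with a median of -0.12. CLIC5 and GRXCR2, which act at the base, were lower by -3.10 ± 0.17 and -2.31 ± 0.15 (adjusted p = 7.06e-18 and 1.31e-15). DAB2, an endocytic adaptor that binds MYO6, was higher by 0.69 ± 0.12, as was TPRN by 0.41 ± 0.09 (adjusted p = 2.46e-05 and 0.000255). Of 8 genes of the stereocilium actin core, 5 were lower, with a median of -0.63, led by the crosslinkers FSCN2 (-2.33 ± 0.18) and PLS1 (-1.13 ± 0.12; adjusted p = 2.07e-13 and 4.49e-10). LCP1 belongs to both the actin core and the leukocyte lists. The hair cell markers themselves had a median of -1.92, with 10 of 11 lower and 1, the hair cell transcription factor ATOH1, higher at 0.66 ± 0.21 (adjusted p = 0.0161).

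The genes with the most similar treatment differences were found among 10920 tested genes with a symbol, by the root mean square difference over the 11 times. This distance counts the size of the treatment difference as well as its course, so a small distance need not mean a shared course. Nearest to MYO7A were OPCML (0.16), PODXL2 (0.16) and GPR98 (0.17). MYO3B had DLG2 (0.12), a synaptic scaffold, APBA1 (0.18) and again GPR98 (0.22). MYO15A had GPR85 (0.26) and TMPRSS3 (0.26), a protease gene of human deafness, among its nearest. MYO3A was nearest to LINGO3 (0.18), the potassium channel gene KCNA4 (0.18) and the chemokine gene CXCL14 (0.19), and MYO6 to AUH (0.09), MADD (0.10) and NSG1 (0.12). MYO1H had no neighbour as close, with C1H11orf70 (0.32), P20K (0.33) and SERPINI1 (0.34) first. Between the myosins the nearest pair was MYO7A and MYO3B at 0.27, followed by MYO7A and MYO15A at 0.36, while MYO15A and MYO6 stood 1.45 apart. All these distances come from the same samples and libraries and are given as descriptions.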

How the data were processed

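The members and the gene lists were chosen with earlier results of these data known. The authors deposited 1 table of RPKM values with a gene name per row and 1 column per library; the unit is not named there and was inferred from the values, which fall on whole multiples of 1 read once multiplied by a library's alignments (for MYO3A, the 12 lowest values within 0.1 of a whole step). Among the tools, TopHat 1.4.0 and Partek 6.6 are listed per the submitters' processing notes. Genome build, annotation and strand setting: not given in the sources used here. No coordinates or sequences are printed. Reads shared with near-identical copies may be split. The table has 2 further columns that match no sample title, and these were left out.

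Values were transformed to log2(RPKM + 0.5), a scale that understates the change of low genes. The test covered the 13862 rows that reached 1 RPKM in 2 or more of the 60 libraries. Where a sample had a second library (in both arms, replicate 1 of 0 h and replicate 2 of 120 h), the log values were averaged. The resulting 56 samples entered 1 model of 22 group means in limma 3.58.1 (R 4.3.3, empirical Bayes with an intensity trend, 34 residual degrees of freedom), with Benjamini-Hochberg adjustment over all genes and calls under 0.05. The fits were tested on simulated data. Periods weight each time equally. Genes named beside the 6 are every called unconventional myosin and the 2 largest called falls and rises of each other gene list. They also include the 3 nearest in treatment difference and, of the cell type marker lists, OTOF and OCM2. MYO1C, DFNB31, EPS8, ATOH1 and LCP1 were chosen after their values were seen. List symbols absent from the table were left out. Some genes are not reported here and were taken out of the lists and their counts.

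Same-numbered samples of both arms were taken as pairs: in 16 pairs at times with 3 or more pairs, deviations from the group means correlated at r = 0.117 to 0.71, and over 28 pairs 26 exceeded 0.1. The labels do not state the pairing. The fit with the pairs as a block left 17 residual degrees of freedom. Other alternatives were pseudocounts of 0.1 and 1, other filters, trimmed-mean and quantile scaling, repeat libraries kept separate, limma without trend or with robust variances, and omission of each replicate number and each sample. 95% intervals for pairs of genes come from the residual spread.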

Additional observations from a re-analysis of the deposited data

Results flagged for a closer look

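Values were flagged where the treatment difference of a gene differed between periods by a limma test of that difference. For MYO1H the difference at 96 to 168 h minus that at 0 and 24 h was 1.29, and that at 48 to 72 h minus 0 and 24 h was 0.92 (adjusted p = 0.000873 and 0.0181). For MYO3A the last period minus the first gave 1.04 and the last minus the middle 0.83 (adjusted p = 0.00984 and 0.0383). Only control and treated samples at 24 h form groups of 4, the smallest size that Dixon's criterion was applied to. In the 12 sets of values they give over the 6 genes, 0 samples stood apart, and the other groups were not examined.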

How the results depend on the processing

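The calls of MYO7A, MYO15A, MYO3A, MYO3B and MYO1H over all times held under every alternative run, except that a filter of 1 RPKM in at least 30 libraries left MYO3A without a value. A pseudocount of 0.1 gave 1.29 for MYO3A from middle to last period, -0.22 for MYO7A minus MYO3A and 0.11 for MYO3A minus MYO3B, none passing, and turned MYO3A minus MYO1H to -0.27. A pseudocount of 1 gave 0.65 for MYO3B from middle to last and -0.22 for MYO7A minus MYO3B, both passing, and turned MYO7A minus MYO15A to -0.10, not passing. Quantile scaling made MYO3A pass at 96 to 168 h (-0.45) and turned MYO6 at 120 h to 0.030. With the replicate block, the calls gained were MYO3A at 96 to 168 h (-0.38), MYO15A and MYO3B from middle to last (0.70 and 0.69) and MYO7A minus MYO3B (-0.16), and 3201 genes were called at 0 and 24 h and 3761 at 96 to 168 h. The block changed no other call of a period, a period difference or a pair of genes. Repeat libraries kept separate gave -0.41 for MYO3A at 96 to 168 h and 0.70 for MYO3B from middle to last, both passing, and 3142 genes at 0 and 24 h. Limma without trend called MYO3B from middle to last (0.69). Without the 7 shallow libraries, an alternative chosen after seeing the data, MYO7A from first to middle turned to 0.0050 and MYO1H there gave 0.66, not passing. The causes of these changes were not tested.

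Trimmed-mean scaling called 2017 genes lower and 2066 higher over all times, against 1737 and 2570 as deposited, a share of 49.4% lower among the calls against 40.3%. At 0 and 24 h that share was 60.4% with trimmed-mean and 59% with quantile scaling, against 46.9%. The calls of the 6 myosins in the periods were the same under trimmed-mean scaling.

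Leaving out samples, MYO6 ranged from -0.37 to -0.29 over all times and from -0.57 to -0.39 at 48 to 72 h, and at 96 to 168 h MYO1H from -0.70 to -0.50 and MYO3A from -0.47 to -0.31. From first to last period MYO3A ranged from 0.90 to 1.26 and MYO1H from 1.10 to 1.43. From middle to last MYO15A ranged from 0.58 to 0.82, MYO3A from 0.74 to 0.90 and MYO3B from 0.59 to 0.80. From first to middle MYO7A ranged from -0.26 to 0.13, MYO1H from 0.72 to 1.10 and MYO6 from -0.32 to 0.029. Within treated samples from middle to last, MYO3A ranged from -0.071 to 0.50, MYO3B from -0.11 to 0.14 and MYO6 from -0.40 to 0.025. MYO15A at 168 h ranged from -0.73 to 0.24 and MYO6 at 120 h from -0.20 to 0.076. The pair difference ranged from -0.27 to -0.085 for MYO7A minus MYO3B, from -0.046 to 0.10 for MYO7A minus MYO15A and from -0.0096 to 0.13 for MYO3A minus MYO1H. Genes called ranged from 1781 to 4464 over all times, from 435 to 1972 at 0 and 24 h, from 831 to 2852 at 48 to 72 h and from 578 to 2446 at 96 to 168 h.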
